A study of Homo sapiens with 17 samples.

Results

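The genes of cholesterol and fatty acid synthesis were followed in SW480 cells, a line of human colon adenocarcinoma cells whose p53 is mutant (mutp53). They are 31 genes listed by name and not by a threshold on measured values, although earlier results of these data were known when the list was made: 8 of the mevalonate pathway, 11 of squalene and sterol synthesis, 5 regulators and carriers of the sterol-sensing system, and 7 of fatty acid synthesis and desaturation. All 31 were found among the 26457 genes listed in the deposited table, and all 31 were among the 14800 genes with enough reads to be tested. The mRNA-seq experiment held 4 groups of 2 biological replicates, A and B. The control line carried a doxycycline-inducible shRNA against LacZ, and the depleted line carried one against p53. Both lines held their shRNA stably, were kept in puromycin and were treated with doxycycline, and cells of each were collected untreated (0 h) or following TNF-α (12.5 ng/ml) for 16 h. Each shRNA was represented by 1 line, so the effect of mutp53 depletion and any other difference between these lines cannot be told apart. The labels name no untreated group at 16 h, so TNF-α and any effect of those 16 h in culture cannot be told apart either. The p-values below measure the spread between 2 libraries per group.

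Cholesterol is made from acetyl-CoA through mevalonate, isoprenyl pyrophosphates, squalene and lanosterol, and mevalonate also feeds protein prenylation and dolichol and ubiquinone synthesis. Fatty acids are made from citrate-derived acetyl-CoA by ATP citrate lyase, acetyl-CoA carboxylase and fatty acid synthase, and are then elongated and desaturated. Many genes of both pathways are targets of SREBP transcription factors, which SCAP escorts from the endoplasmic reticulum when sterols are low and which INSIG proteins hold back when sterols are high. Mutant p53 has been linked to the mevalonate pathway in other cancer cells, and these libraries give its genes with and without depletion of mutp53, before and after an inflammatory signal.

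Values are normalized reads, that is, reads on the exons of a gene scaled to an equal total in every library. The libraries held 6108488 to 13809578 reads on genes, 1 read was worth between 0.670 and 1.51 normalized reads, and the lowest number of reads of any of the 31 genes in any library was 18, for HSD17B7. The 8 colon epithelium markers summed to between 42726 and 70708 normalized reads per library, with CDX1 at 0 in all 8 libraries. The markers of fibroblasts summed to between 28.5 and 177, those of leukocytes to between 11.1 and 40.6, those of endothelium to between 5.69 and 28.8, and those of adipocytes and hepatocytes to between 0 and 4.69, with PTPRC, DCN and ADIPOQ at 0 in every library. The fibroblast sum moved with depletion, at 38.5 and 39.4 in the control line at 0 h against 158 and 177 in the depleted line, and at 31.9 and 28.5 against 56.2 and 59.2 at 16 h, led by COL1A1 and PDGFRB. The endothelial sum, led by VWF in all libraries but replicate A of the control line at 16 h, was 7.26 and 6.06 against 28.8 and 21.9 at 0 h and 6.77 and 5.69 against 17.6 and 28.4 at 16 h, with PECAM1 at no more than 1.23 and CDH5 at no more than 5.80 in any library. The part of these shifts in the depletion results was not tested. In these bulk samples, fewer cells of a type and less RNA per cell cannot be told apart.

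Most of the 31 genes were highest in the control line at 0 h, lower after either TNF-α or mutp53 depletion, and lowest after both. Together they took 0.721% and 0.805% of all normalized reads in the control line at 0 h and 0.367% and 0.401% at 16 h. In the depleted line they took 0.516% and 0.463% at 0 h and 0.326% and 0.298% at 16 h. The 4 pairs of libraries did not overlap. For 25 of the 31 genes both control libraries at 0 h lay above the other 6 libraries, an order found in 17.1% of all genes tested. For 21 of the 31 both depleted libraries at 16 h lay below the other 6, against 16.4% of all genes, and 20 showed both orders, against 9.36%. Across the 31 genes the level left after depletion and TNF-α together ranged from 5.34% of control at 0 h, for TM7SF2, to 104% for ACLY, with a median of 35.4%.

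The summed level of the epithelial markers moved the same way, at 70708 and 66176 in the control line at 0 h and 56292 and 56382 at 16 h, and at 52479 and 52452 in the depleted line at 0 h and 42726 and 43889 at 16 h. KRT8 and KRT18 carried most of this sum, and the markers did not move alike. VIL1 had 545 and 480.2 normalized reads in the control line at 0 h and 5.03 and 0 in the depleted line at 16 h, whereas KRT19 had 7394 and 7114 in the former and 9957 and 10221 in the latter. The part of this shift in the results below was not tested.

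**Figure D1:**
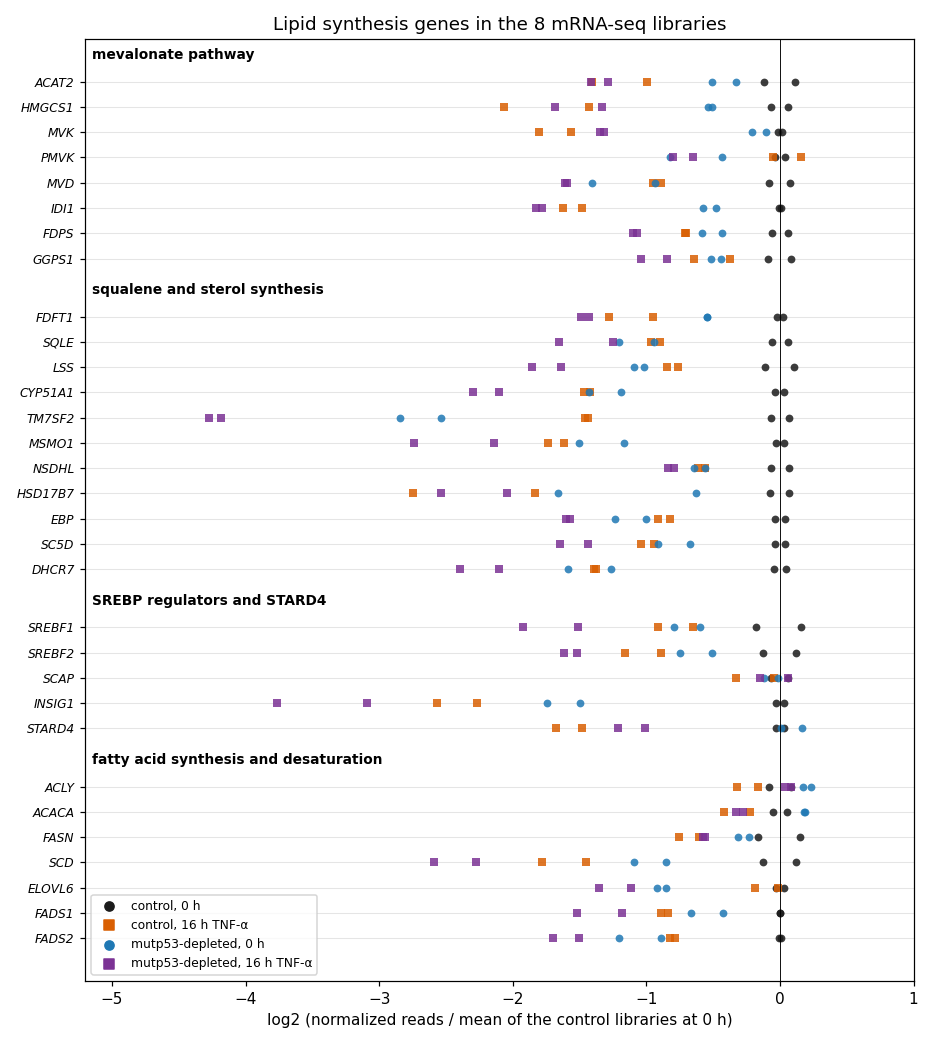
Level of each of the 31 genes in each of the 8 libraries, as the log2 of its normalized reads over the mean of the 2 control libraries at 0 h, grouped by role. Each point is 1 library, circles are 0 h and squares 16 h of TNF-α. The purple squares of TM7SF2 and INSIG1 lie farthest to the left, and those of SCAP and ACLY lie near 0.

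Differences were fitted with limma on log2(normalized reads + 1) over all 14800 genes, and p-values were adjusted over all of them by the Benjamini-Hochberg method. A call needed an adjusted p under 0.05 together with a change of 2-fold or more. TNF-α lowered 28 of the 31 genes in the control line by the adjusted p alone, where 15.2% of all genes passed as lower, and 14 of them by at least 2-fold, against 4.27% of all genes. In mutp53-depleted cells TNF-α lowered 27 of the 31, against 16.9% of all genes, and 9 by at least 2-fold, against 4.5%. No gene of the 31 rose with TNF-α in either line. The median log2 fold change over the 31 genes was -0.93 in the control line and -0.81 in the depleted line, whereas the medians over all genes were -0.047 and -0.063.

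Depletion of mutp53 lowered 26 of the 31 genes at 0 h by the adjusted p, against 25.2% of all genes, and 11 by at least 2-fold, against 9.55%. ACACA and ACLY rose, in a comparison in which 27.3% of all genes passed as higher. At 16 h depletion lowered 21 of the 31, against 26.5% of all genes, and 3 by at least 2-fold, TM7SF2, INSIG1 and ELOVL6, against 10.2%. MVK, STARD4 and ACLY rose at 16 h, against 24.9% of all genes. The medians over the 31 genes were -0.62 at 0 h and -0.52 at 16 h, and those over all genes were 0.028 and -0.0065. The count of 3 genes at 16 h became 7 without replicate A of the depleted libraries at 16 h, and the count of 11 at 0 h became 7 without replicate B of the depleted libraries at 0 h.

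Promoter sequence was read for 27 of the 31 genes from RefSeq (GRCh38.p14), over 250 bases before to 50 after the start. The letters CCAAT, which NF-Y binds, were searched on both strands and were found in 17 of the 27, 63.0%, against 35.7% of the 27305 promoters of the same length. GGGCGG, which Sp1 binds, was found on either strand in 24 of the 27, 88.9%, against 44.6%. TCACNCCAC, a sterol-regulatory-element-like stretch, was found on either strand in 1 of the 27, SREBF2, 3.7%, against 1.15%. Unlike the shares of all genes tested given above, these shares are over 27305 promoters that were not limited to tested genes. All of the 27 genes had enough reads to be tested. Shares among the promoters of tested genes alone were not counted, so the part of expression in these differences was not tested. The CCAAT letters were in the promoters of 8 of 9 genes of squalene and sterol synthesis, 4 of 7 of the mevalonate pathway, 3 of 5 regulators and 2 of 6 of fatty acid synthesis. None of these motifs contains another, and the matches are descriptions of the letters in this window and not of binding.

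Shown here are the 200 bases before the start of 7 genes: 6 that fell with TNF-α in the control line by at least 2-fold, and SCAP, for which no contrast passed the test. Capitals mark CCAAT or its reverse complement ATTGG and, in SREBF2, the sterol-regulatory-element-like match. The stretches lie at chr22:41832905-41833104 (plus strand) for SREBF2, chr7:155297678-155297877 (plus strand) for INSIG1, chr5:43313413-43313612 (minus strand) for HMGCS1, chr11:65111672-65111871 (plus strand) for TM7SF2, chr11:71448394-71448593 (minus strand) for DHCR7, chr4:165327469-165327668 (plus strand) for MSMO1 and chr3:47475942-47476141 (minus strand) for SCAP, all in GRCh38.p14 and each written 5′ to 3′ on the strand of its gene.
SREBF2: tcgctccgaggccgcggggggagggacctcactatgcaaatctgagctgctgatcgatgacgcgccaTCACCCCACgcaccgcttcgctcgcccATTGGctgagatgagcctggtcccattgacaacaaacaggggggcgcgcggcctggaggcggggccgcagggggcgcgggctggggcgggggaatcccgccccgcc
INSIG1: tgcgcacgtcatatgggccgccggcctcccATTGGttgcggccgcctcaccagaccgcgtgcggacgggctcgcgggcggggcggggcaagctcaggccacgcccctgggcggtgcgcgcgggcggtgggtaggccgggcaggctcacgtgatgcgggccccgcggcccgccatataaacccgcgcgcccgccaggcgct
HMGCS1: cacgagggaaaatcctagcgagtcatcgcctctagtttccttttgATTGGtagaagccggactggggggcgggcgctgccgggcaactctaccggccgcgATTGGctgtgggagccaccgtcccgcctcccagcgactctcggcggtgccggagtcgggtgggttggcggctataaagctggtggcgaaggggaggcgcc
TM7SF2: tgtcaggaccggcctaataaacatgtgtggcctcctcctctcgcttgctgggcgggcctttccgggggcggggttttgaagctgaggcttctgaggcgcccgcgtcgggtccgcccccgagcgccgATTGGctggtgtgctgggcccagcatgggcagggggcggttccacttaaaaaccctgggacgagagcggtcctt
DHCR7: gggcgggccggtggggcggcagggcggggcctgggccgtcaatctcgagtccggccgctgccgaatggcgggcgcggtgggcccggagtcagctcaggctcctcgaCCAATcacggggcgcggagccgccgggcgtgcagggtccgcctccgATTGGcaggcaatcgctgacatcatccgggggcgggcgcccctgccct
MSMO1: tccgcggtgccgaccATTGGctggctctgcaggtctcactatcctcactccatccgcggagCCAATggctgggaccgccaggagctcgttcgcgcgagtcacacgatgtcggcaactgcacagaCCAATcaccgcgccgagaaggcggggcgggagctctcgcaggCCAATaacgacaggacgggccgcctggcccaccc
SCAP: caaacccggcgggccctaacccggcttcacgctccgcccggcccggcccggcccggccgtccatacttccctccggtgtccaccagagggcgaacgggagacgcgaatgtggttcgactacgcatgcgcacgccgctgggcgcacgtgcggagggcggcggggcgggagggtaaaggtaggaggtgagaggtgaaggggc
These stretches do not stand for all 31 genes. CYP51A1 and IDI1, which also fell by at least 2-fold with TNF-α in the control line, had no CCAAT in the searched window, whereas ACLY, with a log2 fold change of -0.24 in that contrast, had 2.

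Most genes of the mevalonate pathway fell with TNF-α and with depletion. In control cells 7 of the 8 fell with TNF-α, 4 of them by at least 2-fold, with a median log2 fold change of -1.05. Depletion at 0 h lowered 7 of the 8, of which 1 by 2-fold or more, with a median of -0.51. HMGCS1 (chr5:43287572-43313614 in hg19) encodes the synthase that makes HMG-CoA. It had 996 and 912 normalized reads in the control line at 0 h and 228 and 354 at 16 h, and 658 and 669 in the depleted line at 0 h and 378 and 297 at 16 h. Both groups at 0 h lay above both groups at 16 h, and the 16 h groups of the 2 lines overlapped. The log2 fold change with TNF-α was -1.74 ± 0.15 (SE, adjusted p = 4.94e-08) in the control line and -0.98 ± 0.15 (SE, adjusted p = 6.62e-05) in the depleted line.

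MVK encodes mevalonate kinase, which adds the first phosphate to mevalonate. It had 384 and 374 normalized reads in the control line at 0 h and 108 and 128 at 16 h, and 352 and 328 in the depleted line at 0 h and 152 and 149 at 16 h. The groups at 16 h lay below those at 0 h, and at 16 h the depleted libraries lay above the control libraries. Depletion gave a log2 fold change of -0.16 at 0 h (adjusted p = 0.292 by limma, 95% interval -0.41 to 0.098) and 0.35 ± 0.12 (SE, adjusted p = 0.0221) at 16 h. The 51 genes around MVK on chromosome 12, MVK among them, had a median depletion effect of 0.56 (0 h) and 0.57 (16 h). Every neighbour median below was taken over such a window of 51 genes that includes the gene itself. With that median removed, the MVK values were -0.72 (adjusted p = 0.000219 by limma) and -0.24 (adjusted p = 0.167), so the rise at 16 h no longer passed and its sign turned. The rise also did not pass in DESeq2, nor without replicate A of the control line at 16 h or either depleted library at 16 h.

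IDI1 encodes the isomerase that interconverts the isoprenyl pyrophosphates. Its values were 585 and 591 normalized reads in the control line at 0 h and 190.4 and 211 at 16 h, and 422 and 394 in the depleted line at 0 h and 171 and 165 at 16 h, a level that TNF-α brought to 34.1% in the control line and 41.2% in the depleted line. ACAT2, the cytosolic thiolase that starts the pathway, fell to 44.0% and 52.4% of its level without TNF-α, and to 74.9% with depletion at 0 h. The last of these did not pass without replicate B of either line at 0 h. MVD, mevalonate diphosphate decarboxylase, was the 1 gene of this group that depletion at 0 h lowered by at least 2-fold, to 44.9% of control. Its log2 fold change of -1.17 ± 0.13 (SE, adjusted p = 8.3e-07) became -0.91 with the median of its neighbours removed.

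FDPS and GGPS1, which join isoprenyl units into farnesyl and geranylgeranyl pyrophosphate, changed less. FDPS fell to 61.2% of its 0 h level with TNF-α in the control line, and GGPS1 to 70.5%, which did not pass without replicate B of the control line at 0 h or replicate A at 16 h. FDPS after depletion at 16 h, at a log2 fold change of -0.38 ± 0.075 (SE, adjusted p = 0.000384), was 0.021 (adjusted p = 0.856 by limma) with the median of its neighbours removed. PMVK, phosphomevalonate kinase, had 217 and 206 normalized reads in the control line at 0 h and 204 and 236 at 16 h, and 157 and 119 in the depleted line at 0 h and 122 and 135 at 16 h. Both control groups lay above both depleted groups, whereas the values at 0 h and 16 h overlapped within each line. Depletion lowered PMVK by a log2 fold change of -0.62 ± 0.15 (SE, adjusted p = 0.00184) at 0 h and -0.77 ± 0.15 (SE, adjusted p = 0.000284) at 16 h, the former not passing without replicate B of the depleted line at 0 h. The 95% interval of its TNF-α response was -0.26 to 0.37 in the control line and -0.41 to 0.22 in the depleted line.

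All 11 genes of squalene and sterol synthesis fell with depletion at 0 h, including 8 that fell 2-fold or more, and all 11 fell with TNF-α in the control line, including 6 that did so. The medians were -1.12 in both comparisons. Of the 8, LSS (-1.05), SQLE (-1.07), EBP and HSD17B7 (-1.12 each) lay nearest to the 2-fold threshold. The depleted HSD17B7 libraries at 0 h had 75.7 and 37.0 normalized reads, and LSS was -0.36 with its neighbour median removed. At 16 h, depletion lowered 10 of the 11 with a median of -0.72, and in the depleted line TNF-α lowered 10 with a median of -0.82. The summed level of the 11 genes was 19263 and 20344 normalized reads in the control line at 0 h and 8940.3 and 9033 at 16 h. In the depleted line it was 9543 and 8293 at 0 h and 5942 and 5149.9 at 16 h. The control libraries at 16 h lay within the range of the depleted libraries at 0 h, and the depleted libraries at 16 h lay below both.

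**Figure D2:**
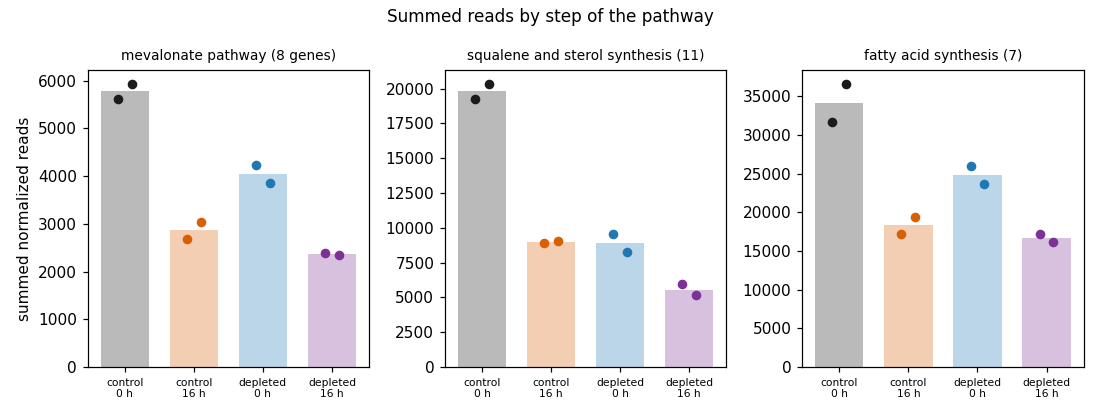
Summed normalized reads over the genes of the mevalonate pathway, of squalene and sterol synthesis, and of fatty acid synthesis and desaturation. Points are the 2 libraries of a group and bars their mean. The sterol genes sum to 19263 and 20344 in the control line at 0 h and to 5942 and 5149.9 in the depleted line at 16 h, and in each panel the control libraries at 0 h are the highest.

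TM7SF2 (chr11:64879326-64883707 in hg19), a sterol reductase of the endoplasmic reticulum, changed most with depletion. It had 790.3 and 867 normalized reads in the control line at 0 h and 306 and 302 at 16 h, and 143 and 115 in the depleted line at 0 h and 42.8 and 45.7 at 16 h. The 4 groups were fully separate, and both depleted groups lay below both control groups. Depletion gave a log2 fold change of -2.68 ± 0.13 (SE, adjusted p = 2.15e-11) at 0 h and -2.75 ± 0.13 (SE, adjusted p = 1.43e-11) at 16 h. With TNF-α it was -1.44 ± 0.13 (SE, adjusted p = 1.45e-07) in the control line and -1.52 ± 0.13 (SE, adjusted p = 1.02e-07) in the depleted line. Its interaction, the TNF-α response in depleted cells less that in the control line, was -0.074 with a 95% interval of -0.47 to 0.32.

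SQLE encodes squalene epoxidase, an oxygen-dependent and rate-limiting step. It had 2504 and 2729.9 normalized reads in the control line at 0 h and 1339.9 and 1403 at 16 h, and 1359.7 and 1133 in the depleted line at 0 h and 1099.9 and 831 at 16 h. The control libraries at 0 h stood above the other 6, which lay closer to each other, and depletion left 47.6% of control at 0 h and 70.4% at 16 h. FDFT1, squalene synthase, fell to 46.4% with TNF-α in the control line and to 68.5% with depletion at 0 h. LSS, which cyclizes squalene epoxide to lanosterol, fell to 48.1% with depletion at 0 h. The 51 genes around LSS on chromosome 21, LSS among them, had a median depletion effect of -0.69. The LSS log2 fold change of -1.05 ± 0.089 (SE, adjusted p = 1.96e-08) was -0.36 (adjusted p = 0.00363 by limma) with that median removed.

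CYP51A1 (chr7:91741463-91763840 in hg19) encodes lanosterol demethylase. It had 3078 and 3225 normalized reads in the control line at 0 h and 1176 and 1142 at 16 h, and 1384 and 1172 in the depleted line at 0 h and 734 and 639 at 16 h. TNF-α in the control line and depletion at 0 h brought it into the same range, and the 2 depleted libraries at 16 h were the lowest. The log2 fold changes were -1.44 ± 0.086 (SE, adjusted p = 4.31e-10) for TNF-α in the control line and -1.31 ± 0.086 (SE, adjusted p = 7.37e-10) for depletion at 0 h.

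DHCR7 (chr11:71145457-71159477 in hg19) encodes the last reductase on the way to cholesterol. Its values were 4552 and 4833 normalized reads in the control line at 0 h and 1787 and 1807 at 16 h, and 1948 and 1564 in the depleted line at 0 h and 1089.9 and 892 at 16 h. The control libraries at 0 h lay far above the rest, those at 16 h overlapped the depleted libraries at 0 h, and the depleted libraries at 16 h were lowest. Depletion at 0 h gave a log2 fold change of -1.43 ± 0.098 (SE, adjusted p = 1.17e-09) and TNF-α in the control line one of -1.38 ± 0.098 (SE, adjusted p = 4.01e-09). At 16 h depletion left 55.2% of the control level.

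MSMO1, a sterol methyl oxidase that acts after lanosterol demethylation, had 1071 and 1024 normalized reads in the control line at 0 h and 342 and 314 at 16 h, and 466 and 369 in the depleted line at 0 h and 238 and 157 at 16 h. Its 4 groups did not overlap, and the control libraries at 16 h lay just below the depleted libraries at 0 h. The level after depletion and TNF-α together was 18.8% of control at 0 h. NSDHL, the dehydrogenase that acts with it, changed less, to 66.0% with depletion at 0 h and to 66.6% with TNF-α in the control line.

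HSD17B7, the ketoreductase of the same demethylation complex, was the gene with the lowest level per kilobase of exon in the control line at 0 h, at 77.3 normalized reads per kb. It had 111 and 123 normalized reads in the control line at 0 h and 17.4 and 32.7 at 16 h, and 75.7 and 37.0 in the depleted line at 0 h and 20.1 and 28.4 at 16 h. The spread between replicates was the widest of the group, with a standard error of 0.33. TNF-α in the control line gave a log2 fold change of -2.24 ± 0.33 (SE, adjusted p = 5.08e-05), and the 95% interval of depletion at 16 h was -0.70 to 0.70. Its near-identical copy on chromosome 10, HSD17B7P2, had between 1.93 and 7.11 normalized reads, so the split of reads between them is uncertain.

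EBP, the sterol isomerase, had 2132 and 2236 normalized reads in the control line at 0 h and 1232 and 1157 at 16 h, and 1091 and 928 in the depleted line at 0 h and 718 and 734 at 16 h. Depletion left 46.2% of control at 0 h and 60.8% at 16 h, and the 4 groups did not overlap. SC5D, a sterol desaturase, followed with 57.8% and 68.3%. Per kilobase of exon, EBP and DHCR7 had the highest levels of the sterol group in the control line at 0 h, at 1899 and 1783 normalized reads per kb.

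The regulators divided into genes that fell strongly, genes that fell moderately and 1 gene for which no contrast passed the test. INSIG1 (chr7:155089486-155101945 in hg19) encodes an anchor that holds SCAP in the endoplasmic reticulum and is itself an SREBP target. It had 1893 and 1963 normalized reads in the control line at 0 h and 326 and 399.8 at 16 h, and 683 and 575 in the depleted line at 0 h and 226 and 142 at 16 h. The 4 groups were fully separate and fell in the order of control at 0 h, depleted at 0 h, control at 16 h and depleted at 16 h. The log2 fold change with TNF-α was -2.41 ± 0.15 (SE, adjusted p = 1.01e-09) in the control line and -1.80 ± 0.15 (SE, adjusted p = 6.88e-08) in the depleted line. For depletion it was -1.62 ± 0.15 (SE, adjusted p = 7.72e-08) at 0 h and -1.01 ± 0.15 (SE, adjusted p = 2.38e-05) at 16 h. The 51 genes around INSIG1 on chromosome 7, INSIG1 among them, had median depletion effects of -0.69 and -0.84. With these removed the INSIG1 values were -0.91 (adjusted p = 5.71e-06 by limma) and -0.27 (adjusted p = 0.0922). The value at 16 h then passed neither the adjusted p nor the 2-fold threshold, and the call at 16 h lay at the threshold, with a ratio of the mean levels of 1.97-fold. The log2 fold change fell short of 2-fold with a pseudocount of 5 (-0.99), edgeR (-0.93) and DESeq2 (-0.97), and also without replicate B of the control line (-0.86) or of the depleted line (-0.67) at 16 h.

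SREBF2 (chr22:42229083-42303312 in hg19) encodes SREBP2, the factor that mainly drives sterol genes. It had 3189.6 and 3774 normalized reads in the control line at 0 h and 1556 and 1878 at 16 h, and 2451 and 2068 in the depleted line at 0 h and 1216 and 1135 at 16 h. The groups did not overlap, and depletion left 64.9% of control at 0 h and 68.5% at 16 h. SREBF1 encodes SREBP1, the factor that mainly drives fatty acid genes, and had 2244 and 2841 normalized reads in the control line at 0 h and 1351 and 1622 at 16 h, and 1677 and 1469.9 in the depleted line at 0 h and 892 and 669 at 16 h. The control libraries at 16 h and the depleted libraries at 0 h overlapped, below the control libraries at 0 h and above the depleted libraries at 16 h. Its log2 fold change with TNF-α was -0.77 ± 0.12 (SE, adjusted p = 0.000119) in the control line and -1.02 ± 0.12 (SE, adjusted p = 5.94e-06) in the depleted line.

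SCAP, the sterol-sensing escort of SREBPs, had 1395 and 1524 normalized reads in the control line at 0 h and 1415 and 1162 at 16 h, and 1444 and 1344 in the depleted line at 0 h and 1521 and 1314 at 16 h. The libraries of all 4 groups overlapped, and none of the contrasts passed. The 95% intervals were -0.38 to 0.012 for TNF-α in the control line and -0.26 to 0.13 for depletion at 0 h. With the median of its neighbours removed, which was 0.33 at 0 h, depletion gave -0.41 (adjusted p = 0.00169 by limma) at 0 h and -0.26 (adjusted p = 0.0358) at 16 h.

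STARD4, a cytosolic sterol carrier, fell with TNF-α and did not fall with depletion. It had 1479.8 and 1536 normalized reads in the control line at 0 h and 473 and 539 at 16 h, and 1691 and 1514 in the depleted line at 0 h and 749 and 649 at 16 h. Both groups at 16 h lay below both groups at 0 h, and the 2 groups at 0 h overlapped. TNF-α gave a log2 fold change of -1.58 ± 0.090 (SE, adjusted p = 2.27e-10) in the control line and -1.20 ± 0.090 (SE, adjusted p = 1.29e-08) in the depleted line. Depletion gave 0.46 ± 0.090 (SE, adjusted p = 0.00027) at 16 h, a rise, and a 95% interval of -0.10 to 0.27 at 0 h.

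The genes of fatty acid synthesis and desaturation did not all move the same way with depletion. With TNF-α in the control line 6 of the 7 fell, 1 by at least 2-fold, with a median of -0.67. With depletion at 0 h, 5 fell and 2 rose, with a median of -0.54. Of all genes, 25.2% passed as lower and 27.3% as higher in that comparison. SCD (chr10:102106772-102124588 in hg19), the stearoyl-CoA desaturase that makes oleate, was the most abundant of the 31 genes per kilobase of exon, at 2493 normalized reads per kb in the control line at 0 h. It had 12458 and 14769 normalized reads in the control line at 0 h and 3958 and 4964 at 16 h, and 7534 and 6366 in the depleted line at 0 h and 2811 and 2262 at 16 h. The groups were fully separate and in the order seen for INSIG1. The log2 fold change was -1.61 ± 0.11 (SE, adjusted p = 4.48e-09) with TNF-α in the control line and -0.97 ± 0.11 (SE, adjusted p = 1.21e-06) with depletion at 0 h.

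FASN, fatty acid synthase, had 8480.1 and 10524 normalized reads in the control line at 0 h and 5624 and 6246 at 16 h, and 8080.3 and 7658 in the depleted line at 0 h and 6372 and 6435 at 16 h. Control libraries at 0 h were the highest, and the 2 groups at 16 h were close to each other. TNF-α gave -0.67 ± 0.088 (SE, adjusted p = 1.11e-05) in the control line and -0.30 ± 0.088 (SE, adjusted p = 0.0172) in the depleted line as log2 fold changes, and depletion gave -0.26 ± 0.088 (SE, adjusted p = 0.0171) at 0 h. At 16 h the 95% interval of depletion was -0.073 to 0.30. The depletion value at 0 h was -0.11 (adjusted p = 0.324 by limma) without replicate B of the control line at 0 h, -0.42 without replicate A, and -0.23 (adjusted p = 0.143) without replicate B of the depleted line at 0 h. The fall with TNF-α in the depleted line did not pass with median-ratio scaling or DESeq2, nor without any 1 of the 4 libraries of that line.

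ACLY and ACACA supply the acetyl-CoA and malonyl-CoA that FASN uses, and neither fell with depletion. ACLY, ATP citrate lyase, had 4047 and 4543 normalized reads in the control line at 0 h and 3441 and 3838 at 16 h, and 5042 and 4844 in the depleted line at 0 h and 4546 and 4406 at 16 h. The depleted libraries lay above the control libraries of the same time, with a log2 fold change of 0.20 ± 0.075 (SE, adjusted p = 0.0288) at 0 h and 0.30 ± 0.075 (SE, adjusted p = 0.00259) at 16 h. ACACA, the cytosolic acetyl-CoA carboxylase, had 1597 and 1722 normalized reads in the control line at 0 h and 1241 and 1418 at 16 h, and 1881 and 1894 in the depleted line at 0 h and 1367 and 1323 at 16 h. Depletion gave a log2 fold change of 0.19 ± 0.076 (SE, adjusted p = 0.0485) at 0 h, and the 2 lines overlapped at 16 h. The rise of ACACA no longer passed in edgeR or DESeq2, nor without either depleted library at 0 h, and that of ACLY at 0 h no longer passed in DESeq2 or without either of these libraries. Both genes lie on chromosome 17 among genes that were also higher, with neighbour medians at 0 h of 0.45 for ACLY and 0.46 for ACACA. With these medians removed the values at 0 h turned to -0.25 (adjusted p = 0.0178 by limma) for ACLY and -0.27 (adjusted p = 0.0109) for ACACA.

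ELOVL6, which elongates palmitate to stearate, had 385 and 371 normalized reads in the control line at 0 h and 375 and 333 at 16 h, and 209 and 200.2 in the depleted line at 0 h and 174 and 148 at 16 h. Both control groups lay above both depleted groups, and the control libraries at 0 h and 16 h overlapped. Depletion gave a log2 fold change of -0.88 ± 0.12 (SE, adjusted p = 4.88e-06) at 0 h and -1.13 ± 0.12 (SE, adjusted p = 2.36e-07) at 16 h, and TNF-α gave -0.35 ± 0.12 (SE, adjusted p = 0.0355) in the depleted line. This TNF-α value did not pass in edgeR or DESeq2, with median-ratio scaling, or without either depleted library at 0 h or replicate B at 16 h. In the control line the 95% interval of TNF-α was -0.34 to 0.15. FADS1 and FADS2, desaturases of polyunsaturated fatty acids, lie next to each other on opposite strands of chromosome 11 and both fell in all 4 contrasts. FADS2 had 1174 and 1156 normalized reads in the control line at 0 h and 659 and 674 at 16 h, and 627 and 505 in the depleted line at 0 h and 411 and 358 at 16 h. Depletion at 0 h left 48.6% of FADS2 and 68.8% of FADS1, and TNF-α in the control line left 57.3% and 54.9%.

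The TNF-α responses of the 2 lines come from different libraries and could be set side by side. Over the 31 genes, which share these libraries and are not independent, the 2 log2 fold changes had a Pearson r of 0.87 and a Spearman rho of 0.87, and over all 14800 genes r was 0.69. The fall was smaller in the depleted line, with an interaction above 0, for 26 of the 31. An interaction above 0 was found in 6839 of all 14800 genes. The median interaction was 0.25 over the 31 genes and -0.025 over all genes. The interaction passed the adjusted p for 2 genes in the direction of a smaller fall, where 0.655% of all genes passed as higher and 2.21% as lower. They were CYP51A1, at 0.55 ± 0.12 (SE, adjusted p = 0.0168), and DHCR7, at 0.56 ± 0.14 (SE, adjusted p = 0.0324). That of CYP51A1 no longer passed without replicate B of any group but the depleted line at 16 h, or without replicate A of that group, and that of DHCR7 passed without only 2 of the 8 libraries, replicate A at 0 h and replicate B at 16 h of the depleted line. At an unadjusted p under 0.05 the interaction passed for 13 of the 31 genes, all in the direction of a smaller fall, against 13.5% of all genes in either direction. For the other 29 genes a difference between the lines was not shown, and the count ranged from 0 to 6 when each library was left out in turn. It was 0 without replicate B of the control line at 0 h, replicate B of the depleted line at 0 h or replicate A of the depleted line at 16 h, and 6 without replicate B of the depleted line at 16 h.

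**Figure D3:**
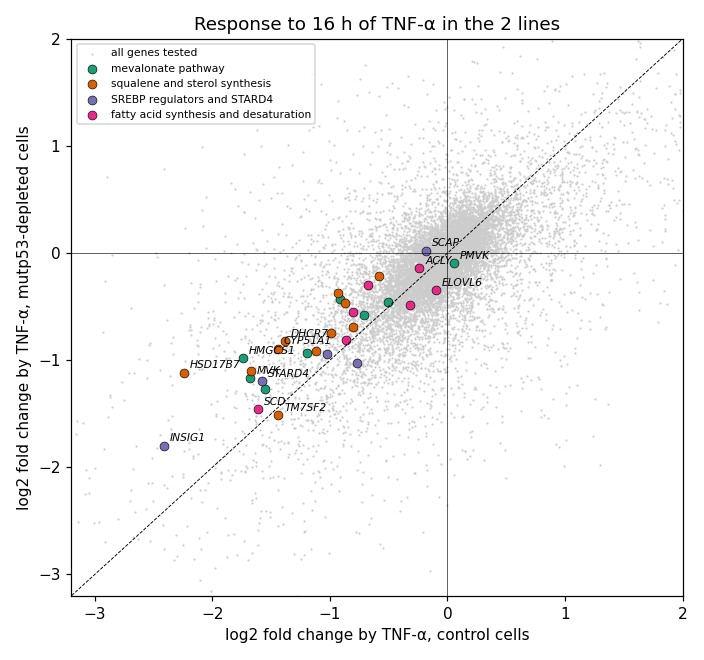
Log2 fold change with 16 h of TNF-α in the control line (horizontal) and in the depleted line (vertical). Grey points are all 14800 genes tested within the axes shown, coloured points are the 31 genes by role, and the dashed line marks equal responses. Of the 31 points, 26 lie above the dashed line. An interaction above 0, which puts a gene above this line, was found in 6839 of all 14800 genes.

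Both genes act late in cholesterol synthesis. In control cells TNF-α took CYP51A1 to 36.8% and DHCR7 to 38.3% of the level at 0 h. In mutp53-depleted cells, which started lower, it took them to 53.7% and 56.4%. The lowest level of both was in depleted cells at 16 h, at 21.8% and 21.1% of control at 0 h.

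The depletion effects at 0 h and 16 h also come from different libraries. Over the 31 genes they had a Pearson r of 0.87 and a Spearman rho of 0.80, and over all genes r was 0.82. The genes with the largest effect at 0 h, TM7SF2 and INSIG1, were 2 of the 3 called at 16 h. The neighbour medians at 0 h ranged from -0.69 to 0.56 over the 31 genes. They were past 0.5 in either direction for 3 of them, MVK, LSS and INSIG1. Less its own neighbour median, the depletion value at 0 h ran from -2.53 for TM7SF2 to -0.16 for STARD4 over the 31 genes. With the neighbour medians removed, the median depletion effect at 0 h was -0.62 over the 31 genes and -0.0045 over all genes. At 16 h it was -0.45 over the 31 genes, in place of -0.52, and -0.00077 over all genes. Genes of the 31 called at 2-fold then numbered 9 at 0 h and 2 at 16 h, in place of 11 and 3. By the adjusted p alone, in either direction, 30 and 22 passed, in place of 28 and 24. The part of these neighbourhood shifts in the depletion effects was not tested beyond the values given here.

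**Figure D4:**
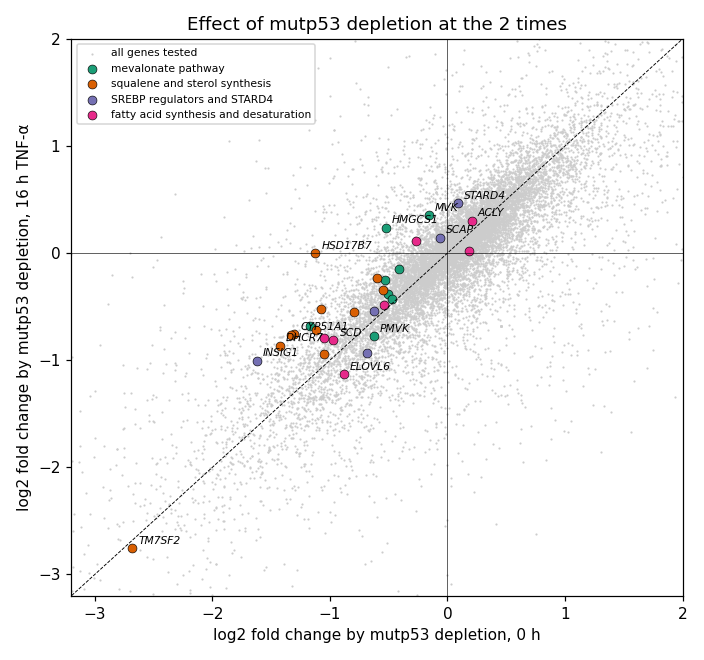
Log2 fold change with mutp53 depletion at 0 h (horizontal) and at 16 h of TNF-α (vertical), with points and dashed line as in the plot of the TNF-α responses. TM7SF2, at -2.68 and -2.75, lies lowest of the 31 genes on both axes, and 8 of the 31 lie above 0 on the vertical axis, of which MVK, STARD4 and ACLY passed the test.

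The genes around the pathway were counted in the same way, beside the shares of all genes given above. The shares of all genes that passed as higher with TNF-α were 11.1% in the control line and 9.8% in the depleted line. Of 18 genes of SREBP regulation and sterol trafficking, 9 fell and 3 rose with depletion at 0 h, 4 fell with TNF-α in the control line, and none changed by 2-fold in any contrast. Their medians were -0.24 for depletion at 0 h and -0.079 for TNF-α in the control line. Of 14 genes of the isoprenoid branches that use mevalonate products for dolichol, ubiquinone and prenylation, 5 fell and 1 rose with depletion at 0 h, and 1 fell with TNF-α in the control line. The medians were -0.13 and -0.032. Of 13 genes of fatty acid oxidation, 5 fell and 2 rose with depletion at 0 h, and 3 fell and 1 rose with TNF-α in the control line, with medians of 0.047 and -0.027. Of the 8 tested among 10 genes of LXR signalling and sterol efflux, 3 fell with depletion at 0 h, and 2 fell and 1 rose with TNF-α in the control line, with medians of -0.25 and 0.25. With depletion at 16 h the counts of genes that fell and rose were 8 and 2 for SREBP regulation, 4 and 2 for the isoprenoid branches, 5 and 3 for oxidation, and 5 and 0 for LXR signalling. With TNF-α in the depleted line they were 4 and 0, 0 and 2, 3 and 0, and 2 and 0.

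Of 24 genes tested among 25 of other fatty acid and glycerolipid synthesis, 14 fell and 3 rose with depletion at 0 h, and 9 fell and 4 rose with TNF-α in the control line, with medians of -0.45 and -0.12. The counts were 14 and 5 for depletion at 16 h, and 9 and 5 for TNF-α in the depleted line. ACSS2, the cytosolic acetyl-CoA synthetase and an SREBP target, had 1769 and 1944 normalized reads in the control line at 0 h and 474 and 499 at 16 h, and 616 and 548 in the depleted line at 0 h and 132 and 146 at 16 h. It fell in all 4 contrasts, and its 4 groups were separate and in the order seen for INSIG1. MLXIPL, which encodes the carbohydrate-response factor ChREBP, had 304 and 391 normalized reads in the control line at 0 h and 72.5 and 81.1 at 16 h, and 67.0 and 49.4 in the depleted line at 0 h and 10.1 and 4.94 at 16 h. It was lowest in depleted cells at 16 h, where the neighbour median for depletion was -0.50. ACACB, the mitochondrial acetyl-CoA carboxylase, overlapped between the lines at 0 h and fell with TNF-α by a log2 fold change of -1.02 ± 0.17 (SE, adjusted p = 0.000183) in the control line and -1.39 ± 0.17 (SE, adjusted p = 7.82e-06) in the depleted line.

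A pair of the 24 genes rose with TNF-α by at least 2-fold in the control line, where 2.97% of all genes did. ACSL5, an acyl-CoA synthetase of the intestine and other tissues, had 39.2 and 27.3 normalized reads in the control line at 0 h and 218 and 176 at 16 h, and 269 and 248 in the depleted line at 0 h and 699 and 658 at 16 h. It rose with TNF-α in both lines and with depletion at both times, and its 4 groups did not overlap. DGAT2, which makes triglyceride, had 105 and 81.8 normalized reads in the control line at 0 h and 231 and 215 at 16 h, and 23.4 and 38.4 in the depleted line at 0 h and 46.1 and 50.6 at 16 h. TNF-α gave a log2 fold change of 1.25 ± 0.23 (SE, adjusted p = 0.000389) in the control line, and depletion one of -1.60 ± 0.23 (SE, adjusted p = 1.13e-05) at 0 h and -2.18 ± 0.23 (SE, adjusted p = 2.55e-07) at 16 h.

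**Figure D5:**
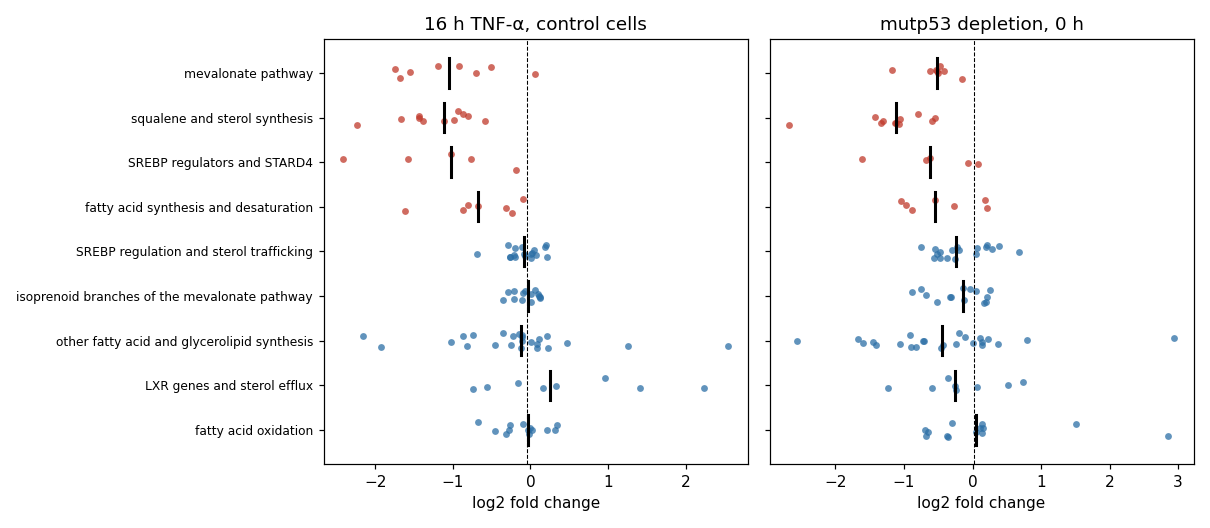
Log2 fold change of each gene with TNF-α in the control line (left) and with mutp53 depletion at 0 h (right), for the 4 groups of the 31 genes (red) and 5 lists of related genes (blue). Black bars are the medians and the dashed line is the median of all genes tested. The medians of the red groups lie between -1.12 and -0.67 on the left, and those of the blue lists between -0.12 and 0.25. On the right they lie closer, between -1.12 and -0.51 for the red groups and between -0.45 and 0.047 for the blue lists. The lowest blue median on the right is that of other fatty acid and glycerolipid synthesis.

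ABCG1, a sterol exporter and LXR target, had 11.6 and 10.6 normalized reads in the control line at 0 h and 17.4 and 55.5 at 16 h, and 6.03 and 2.74 in the depleted line at 0 h and 7.55 and 3.70 at 16 h. Its control values at 16 h were far apart, and depletion at 16 h passed with a log2 fold change of -2.35 ± 0.55 (SE, adjusted p = 0.00149). Among the genes of fatty acid oxidation, SLC25A20, the carnitine and acylcarnitine carrier of mitochondria, had 67.5 and 51.5 normalized reads in the control line at 0 h and 89.9 and 62.6 at 16 h, and 155 and 185 in the depleted line at 0 h and 143 and 173 at 16 h, higher in the depleted line at both times. PPARGC1A, a coactivator of mitochondrial genes, was listed at 0 in all 4 control libraries, at 4.69 and 8.23 normalized reads in depleted cells at 0 h, and at 8.38 and 8.64 at 16 h.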

How the data were processed

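Strand-specific mRNA-seq libraries (50-base single-end reads) were mapped with STAR by the authors, and reads on RefSeq exons were counted by strand with HOMER, per their methods, the processing notes and the file header. The deposited values are a signal, called normalized reads: whole reads multiplied by 1 factor per library. The header of the table names hg19, whereas the methods name hg38, so gene positions are given in hg19 as deposited and promoters in GRCh38.p14 from RefSeq, without conversion. Log2 fold changes and p-values that the authors deposited for 4 comparisons, made with edgeR, were not used. Of the columns with values per sample, 0 were left unmatched. The replicate letters come only from the column names. The ChIP-seq and GRO-seq samples were not analysed here.

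The log2(value + 1) of genes whose mean reached 2.5 entered limma 3.58.1 (R 4.3.3; lmFit, contrasts.fit and a trended eBayes), in 1 fit of 4 group means over 8 libraries. A fold change on this scale understates the change of low genes. Contrasts were depletion at 0 h and 16 h, TNF-α in each line, and the interaction. A call needed 2-fold and a p under 0.05 after Benjamini-Hochberg adjustment, and for the interaction this p only. The procedure was run on simulated counts in which a set of genes was changed in the depleted line at 0 h. Fewer genes were changed there than passed in the real comparison. Only depletion at 0 h was scored, so the run does not bear on the TNF-α or interaction contrasts. The 31 genes and the lists were chosen with earlier results of these data known, as were the tests. Named genes were all 31 and in each other list per contrast, at most the 4 called genes with the largest fold change. INSIG2, TMEM97 and HSD17B7P2 were named after their values were seen. Results for some genes are not reported here.

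All values checked between 1 and 100 reads (100% in each library) were whole multiples of 1 read within a tolerance of 0.011 normalized reads, so reads were recovered for edgeR 4.0.16 (quasi-likelihood, TMM) and DESeq2 1.42.0. Other alternatives were median-ratio scaling, no filter, a minimum mean of 10, a pseudocount of 0.1 or 5, and the replicate letter as a block. Also used were the median of 51 neighbouring genes removed from the depleted libraries, and each library left out in turn. The 51 were consecutive tested genes on the chromosome and included the gene itself. TMM factors lay between 0.970 and 1.03. Intervals are 95% intervals of the limma fit. Plots were made with Python 3.11.15 and matplotlib 3.10.9.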

Additional observations from a re-analysis of the deposited data

Results flagged for a closer look

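The TNF-α response differed between the lines by the interaction test (limma, adjusted over all genes tested) for 2 of the 31 genes and for 4 genes of the related lists, of which 3 are named here. CYP51A1 had an interaction of 0.55 and DHCR7 one of 0.56, both a smaller fall in mutp53-depleted cells. Over the 17 alternatives that of CYP51A1 ranged from 0.43 to 0.67 and passed in 13, and that of DHCR7 ranged from 0.40 to 0.72 and passed in 8. TMEM97, a sterol-responsive membrane protein, had an interaction of 0.51 (adjusted p = 0.0123 by limma), with a log2 fold change of -0.70 in control and -0.18 in mutp53-depleted cells. INSIG2, the second INSIG anchor, had one of -0.66 (adjusted p = 0.0103 by limma), at 0.20 and -0.46. ACSL5 had one of -1.16 (adjusted p = 0.00619 by limma), with a smaller rise in depleted cells, at 2.55 and 1.39. Groups of 2 libraries are too small for a search for single outlying libraries.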

How the results depend on the processing

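Of the log2 fold changes of the 31 genes under the 17 alternatives, 2478 kept their direction and their side of the threshold, 33 newly passed, 87 no longer passed and 37 changed sign. The counts of genes past the adjusted p in the depletion and TNF-α contrasts stayed within 1.5 times the reported ones. The 2-fold count for depletion ranged from 7 to 12 at 0 h and from 2 to 7 at 16 h when single libraries were left out. The count of 2 genes for the interaction was 4 with median-ratio scaling or a pseudocount of 5, 1 with no filter or a pseudocount of 0.1, 5 with edgeR, and from 0 to 6 with single libraries left out (0 without shLacZ 0 h replicate B, shp53 0 h replicate B or shp53 16 h replicate A, and 6 without shp53 16 h replicate B). It was 6 with the replicate letter as a block. Over all genes with a mean of at least 10, same-letter deviations from the group means correlated between -0.042 and 0.117. The letters were therefore not taken to pair the samples, and the block changed no other count. Pairing over the 31 genes alone was not tested. In the depleted line replicate A lay above B at both times for genes such as SCD, DHCR7 and INSIG1, and not for HMGCS1 or LSS.

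With the median of the 51 neighbouring genes removed, the sign changed for depletion at 0 h of ACACA (-0.27), ACLY (-0.25) and STARD4 (-0.16). It changed for depletion at 16 h of ACACA (-0.33), ACLY (-0.11), FDPS (0.021), HSD17B7 (-0.13), MVK (-0.24) and SCAP (-0.26). It also changed for the interaction of FADS1 (-0.064) and for TNF-α in depleted cells of SCAP (-0.035). Depletion at 16 h of HSD17B7 was -0.0055 with a pseudocount of 5, -0.023 with edgeR and -0.025 with DESeq2. With single libraries left out, values of either sign were seen for depletion at 16 h of ACACA (-0.077 to 0.12), ACAT2 (-0.36 to 0.056), HMGCS1 (-0.079 to 0.55), HSD17B7 (-0.44 to 0.44) and SCAP (-0.0015 to 0.28), for TNF-α of PMVK (-0.052 to 0.16 in control and -0.29 to 0.099 in depleted cells) and SCAP (-0.084 to 0.13 in depleted cells), and for the interaction of FADS1 (-0.11 to 0.23), GGPS1 (-0.089 to 0.18), PMVK (-0.35 to 0.046), SCD (-0.0070 to 0.32), SREBF2 (-0.052 to 0.22) and TM7SF2 (-0.23 to 0.079). The cause was not tested. The depth limits HSD17B7 most, with 18 reads in the library where it was lowest.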
